A study of Homo sapiens with 18 samples.

Results

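The expression of 9 genes of the serpin family and the urokinase system was measured across the 9 conditions of the series, in polyadenylated RNA of MDA-MB-231 cells, a human triple-negative breast cancer cell line of the basal subtype. The genes were chosen by name (SERPINA1, SERPINA3, SERPINB2, SERPINB5, SERPINB7, SERPINE2, SERPINH1, PLAU and PLAUR) and all 9 were found among the 60603 genes of both count tables. They were proposed with earlier results of these libraries in view, so the p-values below state how a difference compares with the spread between libraries and are no independent support for it. Groups in which both libraries held at most 3 counts of a gene were treated as lying at a floor.

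Each condition had 2 libraries, labelled as replicates. The paper describes those of the inducible system as biological replicates. The transient system had a control group, a group given doxorubicin (0.6 µM, 48 h), and a group labelled as overexpressing FLAG-ZMYND8 that received the same drug treatment. In the inducible system the cells carried either GFP or FLAG-ZMYND8 on a doxycycline-inducible lentiviral vector and were kept in 250 ng/mL doxycycline, without doxorubicin or with 0.6 µM doxorubicin for 6 or 48 h. Doxorubicin is a DNA-damaging chemotherapeutic drug, and ZMYND8 is a chromatin reader protein. Each construct was represented by 1 stably selected cell population, so a difference between ZMYND8 and GFP cells cannot be told apart from a difference between those populations.

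Serpins are a family of proteins that mostly inhibit serine proteases by trapping them in an irreversible complex. The urokinase plasminogen activator, encoded by PLAU, cleaves plasminogen to plasmin at the cell surface when it is bound to its receptor, encoded by PLAUR, and the system is well known for its part in the breakdown of extracellular matrix by invasive tumor cells. Several serpins (SERPINB2 and SERPINE2 among them) inhibit plasminogen activators, whereas others act on neutrophil proteases or, like SERPINH1, on no protease at all.

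The libraries held 5729294 to 24713822 counts in the transient system and 18300628 to 23724398 in the inducible system. ZMYND8 was 2.15 log2 units higher in ZMYND8 than in GFP cells without doxorubicin (SE 0.05, edgeR's quasi-likelihood test, Benjamini-Hochberg adjusted p = 1.2e-23). In the transient system, it was not higher in the libraries labelled ZMYND8 (log2 fold change −0.09 against doxorubicin alone, SE 0.23, adjusted p = 1), so those libraries are called by their label here. The second libraries of both doxorubicin-treated transient groups were closer to each other than any other pair, with a chi-square per degree of freedom of 1.39 against 9.71 to 55.6 in the other 14 pairs of transient libraries. Markers of these cells were high in all groups (VIM 2156 to 4481 CPM, meaning counts scaled to a common library size), and ESR1 and PGR were at most at 0.755 CPM. ERBB2 (74.4 to 162.7 CPM) and the epithelial markers EPCAM (7.51 to 42.3 CPM) and CDH1 (0.721 to 20.9 CPM) were detected, although they were listed as low or absent in these cells. Levels are given as CPM with TMM factors within each system, so levels set across both systems were normalized separately.

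A gene was called when its adjusted p-value was at most 0.05 and its log2 fold change at least 1 in either direction. Of the 9 genes, 5 passed the filter on low counts in the transient system (15697 genes in all) and 7 did so in the inducible system (18801 genes in all). Between ZMYND8 and GFP cells without doxorubicin, 3 of the 7 genes were called (SERPINB2 higher, SERPINA1 and SERPINB7 lower), where 17.8% of all genes tested were called. After 6 h of doxorubicin 2 were called between both lines (background 16%), and after 48 h 3 were called (background 17.5%). In GFP cells, doxorubicin changed 1 of the 7 at 6 h (background 9.17%) and 2 at 48 h (background 22.4%). In ZMYND8 cells, it changed 2 at 6 h (background 4.78%) and 3 at 48 h (background 20.1%). By the adjusted p alone, without a fold, 6 of the 7 passed between the untreated lines (background 58.3%), 5 at 6 h (55.5%) and 7 at 48 h (60%). Doxorubicin passed the same rule for 4 of the 7 in GFP cells at 6 h (47.9%), 7 at 48 h (64.2%), and for 5 in ZMYND8 cells at 6 h (40.8%) and 5 at 48 h (62.3%). The interaction of line and doxorubicin was called for none of the 7 at either time (background 1.03% at 6 h and 4.45% at 48 h), and by the adjusted p alone for 4 (13.4%) and 2 (28.6%). With so few genes, none of these shares was read as particular to the group. In bulk RNA, fewer cells that express a gene and less RNA of it per cell cannot be told apart.

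**Figure D1:**
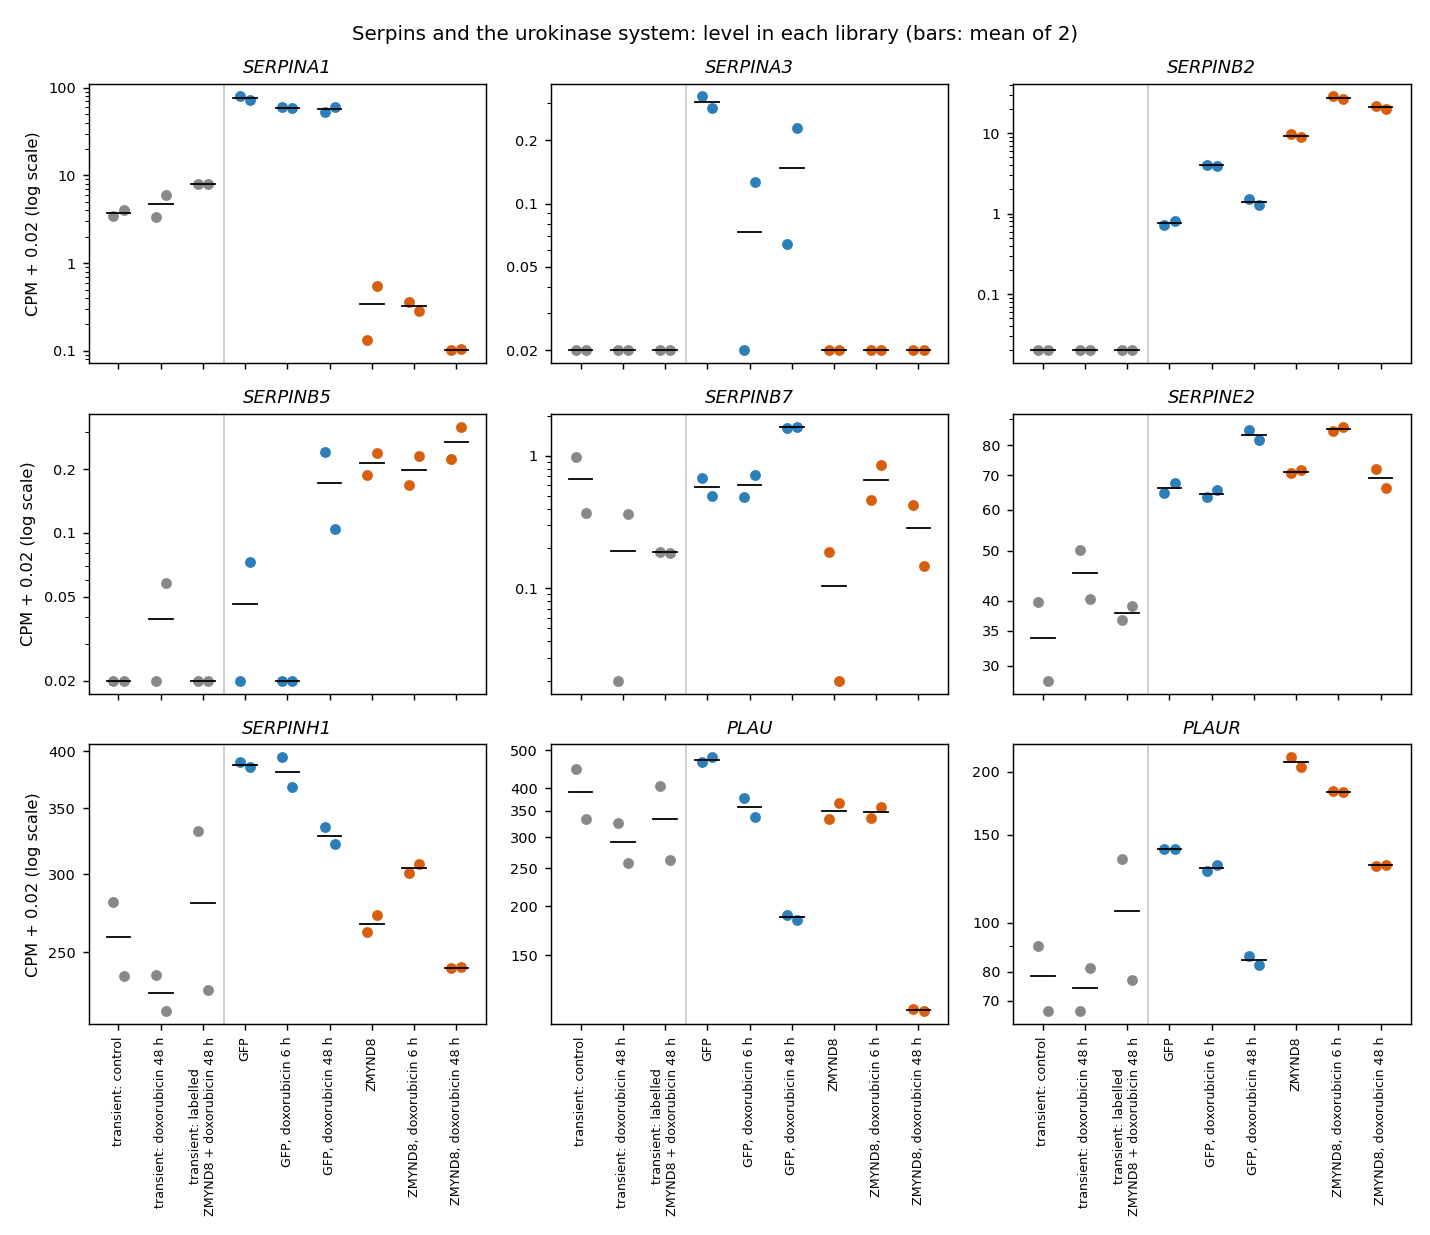
Level of each of the 9 genes in every library, as CPM plus 0.02 on a log axis, with the mean of the 2 libraries of a group as a bar. SERPINA1 lies at 52.7 to 79.5 CPM in GFP cells and at 0.0813 to 0.525 CPM in ZMYND8 cells, SERPINB2 shows the opposite order, and the transient libraries (grey) were normalized separately.

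The urokinase gene PLAU (ENSG00000122861.16, hg38 chromosome 10, 73909177 to 73917496) was the most abundant of the 9 genes per kilobase of exon in untreated cells of both lines, and its RNA fell with 48 h of doxorubicin in both lines. In GFP cells PLAU stood at 467 and 480.1 CPM without doxorubicin, at 378 and 338 CPM after 6 h, and at 190.3 and 185 CPM after 48 h. In ZMYND8 cells it stood at 334 and 366 CPM without doxorubicin, at 336 and 358 CPM after 6 h, and at 109 and 108 CPM after 48 h. Both libraries at 48 h were thus below all other libraries of their line, and those of ZMYND8 cells were the lowest of the system. The 3 middle groups (ZMYND8 cells with and without 6 h of doxorubicin, and GFP cells at 6 h) overlapped.

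PLAU fell 2.53-fold in GFP cells at 48 h (log2 fold change −1.34, SE 0.05, edgeR adjusted p = 1.8e-18) and 3.23-fold in ZMYND8 cells (−1.69, SE 0.05, adjusted p = 4.3e-20). At 6 h the decrease in GFP cells was −0.40 (SE 0.05, adjusted p = 8.4e-08), whereas ZMYND8 cells showed −0.01 (SE 0.05, adjusted p = 0.87). The difference of these effects, taken as ZMYND8 minus GFP cells, was 0.39 at 6 h (SE 0.07, adjusted p = 0.00027) and −0.35 at 48 h (SE 0.07, adjusted p = 0.00039). Compared with GFP cells, ZMYND8 cells had less PLAU RNA without doxorubicin (−0.44, SE 0.05, adjusted p = 1.3e-08) and after 48 h (−0.79, SE 0.05, adjusted p = 5.8e-13), but −0.05 after 6 h (SE 0.05, adjusted p = 0.45). PLAU shares 916 exon bases, 31.1% of its exon length, with the gene C10orf55 on the opposite strand. The counts of C10orf55 were 4.36% to 6.03% of those of PLAU in the inducible libraries and 30.2% to 38.7% in the transient libraries, and their part in the PLAU values was not tested.

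The receptor gene PLAUR (ENSG00000011422.12, hg38 chromosome 19, 43646095 to 43670547, minus strand) fell with 48 h of doxorubicin as well, but stood higher in ZMYND8 than in GFP cells at each time. GFP cells held 140.2 and 140.1 CPM without doxorubicin, 127 and 131 CPM after 6 h, and 85.9 and 82.6 CPM after 48 h. ZMYND8 cells held 214 and 205 CPM without doxorubicin, 183 and 182 CPM after 6 h, and 129.99 and 130.8 CPM after 48 h. The ZMYND8 libraries exceeded the GFP libraries of the same treatment in every case, and ZMYND8 cells at 48 h overlapped with GFP cells at 6 h.

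The excess of PLAUR in ZMYND8 cells was 0.58 log2 units without doxorubicin (SE 0.04, edgeR adjusted p = 1.5e-12), 0.50 at 6 h (SE 0.04, adjusted p = 4.4e-11) and 0.63 at 48 h (SE 0.04, adjusted p = 7.5e-13), which is a factor of 1.49, 1.42 and 1.55. Doxorubicin for 48 h lowered PLAUR by −0.73 in GFP cells (SE 0.04, adjusted p = 2.7e-14) and by −0.68 in ZMYND8 cells (SE 0.04, adjusted p = 3.7e-14). The difference between both effects was 0.05 (SE 0.06, adjusted p = 0.58). At 6 h the change was −0.12 in GFP cells (SE 0.04, adjusted p = 0.018, and 0.019 to 0.37 over the alternatives) and −0.20 in ZMYND8 cells (SE 0.04, adjusted p = 0.0002). None of these PLAUR differences reached the fold that a call required.

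The 250 bases before the RefSeq start sites of PLAU and PLAUR are shown because urokinase and its receptor differed in opposite directions between the lines without doxorubicin. They were read from the RefSeq promoter table for GRCh38.p14, which held all 9 genes. Capitals mark matches to the letters searched on both strands, which were TGANTCA (a loose, AP-1-like motif), TATAAA (the TATA box) and CCAAT, chosen after the data were seen. The N stood for any base. In windows from 250 bases before to 50 bases after the start, 7.71% of 35116 promoters held the first, 11.5% the second and 34.6% the third. The PLAU window, chr10:73910360-73910609 on the plus strand, held CCAAT with its first base 182 bases before the start. The PLAUR window, chr19:43670170-43670419 on the minus strand, held TGAGTCA 186 bases before the start.
PLAU: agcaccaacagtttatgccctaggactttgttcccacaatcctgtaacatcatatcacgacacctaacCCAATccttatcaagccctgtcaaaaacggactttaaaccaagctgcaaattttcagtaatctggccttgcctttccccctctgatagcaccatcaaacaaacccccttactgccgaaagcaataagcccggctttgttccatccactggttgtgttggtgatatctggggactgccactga
PLAUR: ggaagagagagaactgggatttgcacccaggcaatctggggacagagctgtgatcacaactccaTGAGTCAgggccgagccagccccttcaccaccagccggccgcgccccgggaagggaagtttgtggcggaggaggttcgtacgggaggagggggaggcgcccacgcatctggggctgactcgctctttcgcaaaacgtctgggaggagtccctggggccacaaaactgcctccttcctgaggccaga

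SERPINB2 (ENSG00000197632.9, hg38 chromosome 18, 63871692 to 63903888) encodes plasminogen activator inhibitor type 2, an inhibitor of urokinase. It was higher in ZMYND8 than in GFP cells at every time and rose with doxorubicin in both lines. GFP cells held 14 and 15 counts without doxorubicin (0.710 and 0.791 CPM), 76 and 73 counts after 6 h (3.99 and 3.91 CPM), and 34 and 30 counts after 48 h (1.51 and 1.26 CPM). ZMYND8 cells held 174 and 204 counts without doxorubicin (9.72 and 8.93 CPM), 582 and 505 counts after 6 h (28.7 and 26.5 CPM), and 541 and 467 counts after 48 h (21.998 and 19.9 CPM). The 6 groups did not overlap, and even untreated ZMYND8 cells were above all GFP libraries.

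The difference of SERPINB2 between the lines was 3.62 log2 units without doxorubicin, a 12.3-fold higher level in ZMYND8 cells (SE 0.19, edgeR adjusted p = 5.4e-15). It was 2.80 after 6 h (SE 0.12, adjusted p = 1e-16) and 3.92 after 48 h (SE 0.14, adjusted p = 2.6e-18). After 6 h of doxorubicin, SERPINB2 rose 5.23-fold in GFP cells (2.39, SE 0.23, adjusted p = 1.5e-09) and 2.97-fold in ZMYND8 cells (1.57, SE 0.11, adjusted p = 3.7e-12). The difference between both rises was −0.82 (SE 0.27, adjusted p = 0.045). It passed the threshold in 4 of 13 alternatives, whose adjusted p-values were 0.026 to 0.23. After 48 h, the rise was 1.17 in ZMYND8 cells (SE 0.11, adjusted p = 3e-10) and 0.88 in GFP cells (SE 0.28, adjusted p = 0.0088). The latter passed the adjusted p but not the fold, and it reached 1.12 when libraries were scaled by total counts. Its adjusted p was 0.081 without the first GFP library at 48 h and 0.074 without the first untreated GFP library, in a range of 0.00089 to 0.081 over the alternatives. SERPINB2 shares 547 exon bases (20% of its exon length) with SERPINB10 on the same strand, which had 0 to 2 counts in the inducible libraries.

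The window before SERPINB2, chr18:63887455-63887704 on the plus strand, is shown as that of the gene with the largest rise after 6 h of doxorubicin in GFP cells among the 7 genes tested. It held TGAATCA 102 bases and TATAAA 30 bases before the RefSeq start site. The same letters TGAATCA stood 146 bases before the start of SERPINB5. SERPINA1, SERPINA3, SERPINB7 and SERPINH1 had none of the 3 motifs in their windows, and SERPINE2 had 7 matches to CCAAT over both strands.
SERPINB2: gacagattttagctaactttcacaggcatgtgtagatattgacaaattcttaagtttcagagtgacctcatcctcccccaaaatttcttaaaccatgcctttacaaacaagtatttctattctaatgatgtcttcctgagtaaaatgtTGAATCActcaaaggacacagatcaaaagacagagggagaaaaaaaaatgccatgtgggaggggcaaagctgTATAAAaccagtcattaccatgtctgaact

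SERPINE2 (ENSG00000135919.13, hg38 chromosome 2, 223975045 to 224039318, minus strand) encodes protease nexin-1, which inhibits thrombin and the plasminogen activators. Its levels stayed within a narrow range of 63.5 to 86.8 CPM in the 12 inducible libraries. GFP cells held 64.7 and 67.5 CPM without doxorubicin, 63.5 and 65.5 CPM after 6 h, and 85.6 and 81.7 CPM after 48 h. ZMYND8 cells held 70.6 and 71.6 CPM without doxorubicin, 85.3 and 86.8 CPM after 6 h, and 71.8 and 66.1 CPM after 48 h. The higher level was thus seen after 48 h in GFP cells and after 6 h in ZMYND8 cells.

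SERPINE2 rose by 0.34 log2 units in GFP cells at 48 h (SE 0.05, edgeR adjusted p = 1.9e-06) and by 0.27 in ZMYND8 cells at 6 h (SE 0.05, adjusted p = 7.9e-05). The difference of the doxorubicin effects (ZMYND8 minus GFP cells) was 0.31 at 6 h (SE 0.07, adjusted p = 0.0052) and −0.38 at 48 h (SE 0.07, adjusted p = 0.00018). The value for ZMYND8 cells at 48 h was −0.04 (SE 0.05, adjusted p = 0.47) and turned to 0.16 (adjusted p = 0.0075, with 0.0075 to 0.96 over the alternatives) when libraries were scaled by total counts. Between the lines, SERPINE2 differed by 0.11 without doxorubicin (SE 0.05, adjusted p = 0.087), by 0.42 at 6 h (SE 0.05, adjusted p = 1.2e-07) and by −0.28 at 48 h (SE 0.05, adjusted p = 2.6e-05).

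**Figure D2:**
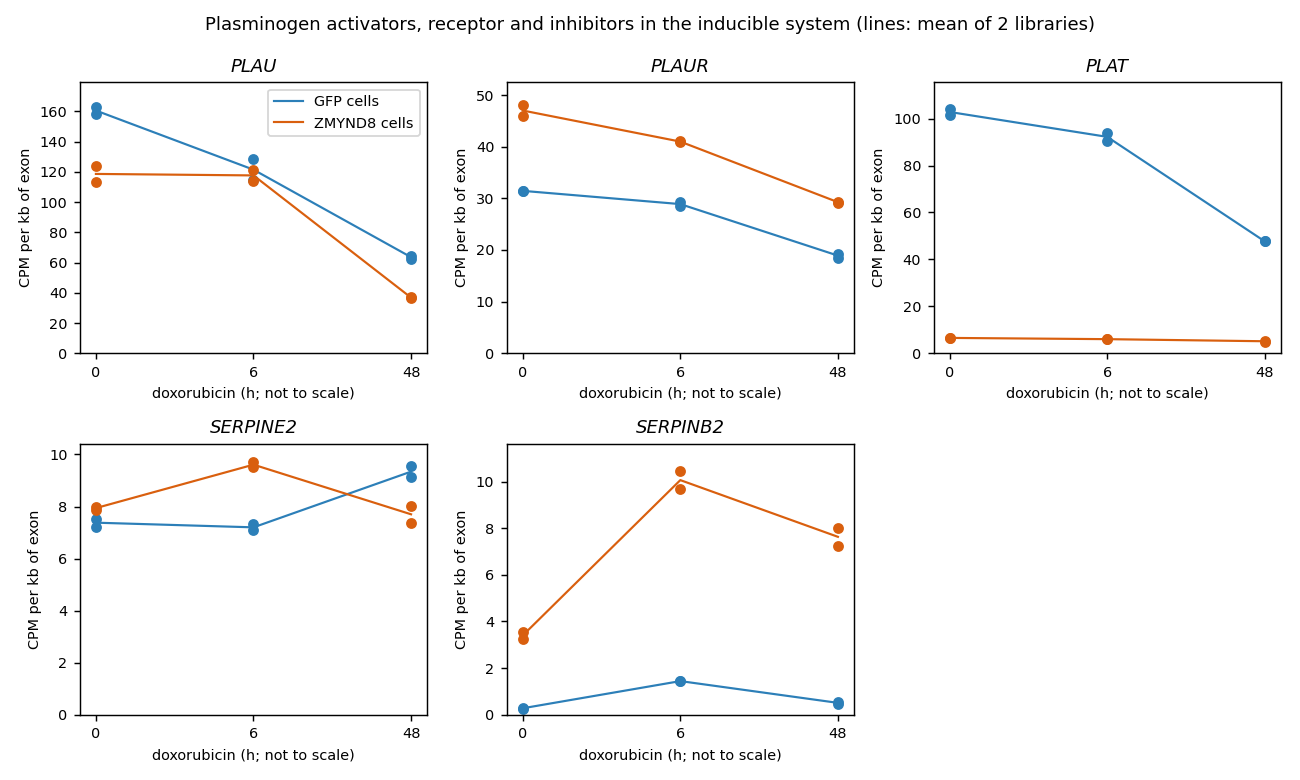
CPM per kilobase of exon of urokinase (PLAU), its receptor (PLAUR), tissue plasminogen activator (PLAT) and the inhibitors SERPINE2 and SERPINB2 against hours of doxorubicin (categories, not to scale) in the inducible system, with points for libraries and lines through the means. PLAU and PLAUR are lowest at 48 h in both lines, PLAT is low at all times in ZMYND8 cells, and SERPINB2 peaks at 6 h.

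The other genes of the plasminogen system put these changes beside their partners. PLAT, the tissue plasminogen activator, was 15.8-fold lower in ZMYND8 cells without doxorubicin (13278 and 13049 counts in GFP cells against 783 and 977, log2 fold change −3.98, SE 0.05, edgeR adjusted p = 2.9e-29). PLAT was also 15.4-fold lower at 6 h (−3.94, SE 0.05, adjusted p = 6e-29) and 9.33-fold lower at 48 h (−3.22, SE 0.05, adjusted p = 3.6e-27). Its mean without doxorubicin was 681 CPM in GFP and 43.2 CPM in ZMYND8 cells. Transient control cells, normalized separately, lay between them at 179 CPM. In GFP cells PLAT fell by 1.11 log2 units after 48 h of doxorubicin (SE 0.04, adjusted p = 3.2e-19), as PLAU and PLAUR also fell.

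Compared per kilobase of exon, PLAU stood at 161 ± 3.12 CPM per kb and PLAT at 103 ± 1.61 in GFP cells without doxorubicin (mean ± SD, n = 2). In ZMYND8 cells the same levels were 119 ± 7.84 for PLAU and 6.53 ± 0.103 for PLAT. Of the inhibitors of plasminogen activators among the 9 genes, SERPINE2 stood at 7.38 ± 0.223 CPM per kb in GFP cells and 7.94 ± 0.0836 in ZMYND8 cells. SERPINB2 stood at 0.274 ± 0.0210 and 3.40 ± 0.203. Of both, SERPINE2 was therefore the more abundant in each line. Inhibitors outside the 9 genes were not ranked, and 1 of them, SERPINA5 (described below), stood higher in GFP cells, at 9.10 ± 0.157 CPM per kb.

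Of 14 further genes of the plasminogen system, 11 were tested in the inducible system. Without doxorubicin, 1 was called higher in ZMYND8 than in GFP cells (VTN, encoding vitronectin, with 2 and 1 counts in GFP and 6 and 12 in ZMYND8 cells) and 4 lower, where 6.83% of all genes were called higher and 11% lower, and the median log2 fold change of the list was −0.98 against 0 over all genes. The 4 included PLAT, the collagen-binding receptor gene MRC2 (−3.76, SE 0.06, edgeR adjusted p = 1.7e-26) and LRP1, the receptor that clears complexes of activator and inhibitor (−1.32, SE 0.07, adjusted p = 3.4e-15). ANXA2 and S100A10, which encode a plasminogen-binding complex at the cell surface, had −0.01 (SE 0.04, adjusted p = 0.88) and 0.06 (SE 0.05, adjusted p = 0.28). After 48 h of doxorubicin, 2 of the 11 were called higher and 3 lower in GFP cells (all genes 14.1% and 8.29%), and 2 higher and 1 lower in ZMYND8 cells (all genes 13.6% and 6.5%). LRP1 was among the genes that fell in both lines (−1.82, SE 0.07, adjusted p = 4.5e-18, and −1.23, SE 0.08, adjusted p = 3.7e-13). KLKB1 and A2M, encoding plasma prekallikrein and alpha-2-macroglobulin, rose in both lines at 48 h from at most 4 counts to at most 17 counts per library. At 6 h, 1 of the 11 was called lower and none higher in GFP cells (all genes 6.11% and 3.06%), and none was called in ZMYND8 cells (all genes 3.56% and 1.21%). By the adjusted p alone, 1 was higher and 4 lower in GFP cells, and 3 were higher and 1 lower in ZMYND8 cells. Of all genes, 47.9% passed that rule in GFP cells (46.2% of these higher) and 40.8% in ZMYND8 cells (53.5% of these higher).

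SERPINA1 (ENSG00000197249.13, hg38 chromosome 14, 94376747 to 94390693, minus strand) encodes alpha-1-antitrypsin, the main inhibitor of neutrophil elastase in plasma, and showed the largest difference between the lines among the 7 genes tested. GFP cells held 1569 and 1358 counts without doxorubicin (79.5 and 71.6 CPM), 1141 and 1096 counts after 6 h (59.9 and 58.7 CPM), and 1187 and 1432 counts after 48 h (52.7 and 60.2 CPM). ZMYND8 cells held 2 and 12 counts without doxorubicin (0.112 and 0.525 CPM), 7 and 5 counts after 6 h (0.345 and 0.263 CPM), and 2 and 2 counts after 48 h (0.0813 and 0.0851 CPM). The GFP and ZMYND8 libraries lay far apart at each time. Transient control cells, normalized separately, lay between the untreated lines, at a mean of 3.72 CPM. Within ZMYND8 cells the untreated libraries differed from each other more than from those at 6 h.

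Without doxorubicin, SERPINA1 was 217-fold lower in ZMYND8 cells (log2 fold change −7.76, SE 0.17, edgeR adjusted p = 2.8e-23), with −9.33 to −7.14 when single libraries were left out. At 6 h it was 191-fold lower (−7.57, SE 0.18, adjusted p = 2.3e-22). At 48 h ZMYND8 cells lay at the floor, with 4 counts in all against 2619 in GFP cells, a ratio of 680 with a 95% counting interval of 265 to 2498. Such intervals cover counting error only, since reads amplified by PCR are not independent molecules. Taken at 3 counts per library, the same ratio was 452. In GFP cells, doxorubicin lowered SERPINA1 by −0.35 at 6 h (SE 0.08, adjusted p = 0.00036) and by −0.42 at 48 h (SE 0.08, adjusted p = 2.2e-05). With total counts as the scale, the value at 48 h was −0.17 (adjusted p = 0.044, the highest of the alternatives, which reached 2.4e-10 at the lowest). In ZMYND8 cells the value at 6 h was −0.17 (SE 0.59, adjusted p = 0.86). SERPINA1 was called lower at 48 h than without doxorubicin in ZMYND8 cells (adjusted p = 0.027), from 14 counts in both libraries together to 4, a ratio of 4.13 with a counting interval of 1.30 to 17.2. That call was lost without the second untreated ZMYND8 library (log2 fold change −0.41, adjusted p = 0.79) and without either library at 48 h (adjusted p = 0.081 and 0.068). The adjusted p over all alternatives was 0.0028 to 0.79.

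The window before SERPINA1, chr14:94390636-94390885 on the minus strand, is shown because this gene differed most between the lines among the 7 tested. It held none of the 3 motifs.
SERPINA1: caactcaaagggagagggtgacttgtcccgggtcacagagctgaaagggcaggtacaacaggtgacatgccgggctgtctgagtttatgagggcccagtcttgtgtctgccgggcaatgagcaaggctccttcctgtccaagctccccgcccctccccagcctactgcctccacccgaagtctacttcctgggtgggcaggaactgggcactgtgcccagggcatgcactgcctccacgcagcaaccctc

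SERPINA3 (ENSG00000196136.17, hg38 chromosome 14, 94612377 to 94624055) encodes alpha-1-antichymotrypsin, an acute-phase inhibitor of cathepsin G. It was close to absent and did not pass the filter on low counts. GFP cells held 6 and 5 counts without doxorubicin, 0 and 2 after 6 h, and 1 and 5 after 48 h, whereas all 6 libraries of ZMYND8 cells and all 6 transient libraries held 0. Against the floor of 3 counts per library, the untreated ZMYND8 cells lay at least 1.90-fold lower than GFP cells, with no test. SERPINA3 shares 31.8% of its exon bases with a gene on the same strand (ENSG00000273259).

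SERPINB7 (ENSG00000166396.13, hg38 chromosome 18, 63752935 to 63805376) encodes megsin, an inhibitory serpin first known from mesangial cells of the kidney and also expressed in skin. It was rare, with 0 to 39 counts in the inducible libraries, and its calls depended on single libraries. GFP cells held 13 and 9 counts without doxorubicin, 9 and 13 after 6 h, and 36 and 39 after 48 h. ZMYND8 cells held 3 and 0 counts without doxorubicin, 9 and 16 after 6 h, and 10 and 3 after 48 h. GFP cells at 48 h were above all other libraries of the system, and the untreated ZMYND8 libraries were at the floor.

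In GFP cells, SERPINB7 rose 2.83-fold after 48 h (log2 fold change 1.502, SE 0.48, edgeR adjusted p = 0.0084). DESeq2 gave an adjusted p of 0.094, leaving out the second untreated GFP library gave 0.070, and the other alternatives reached 0.002 at the lowest. SERPINB7 was called lower in untreated ZMYND8 than in untreated GFP cells (adjusted p = 0.0047), with 3 against 22 counts, a ratio of 7.73 with a counting interval of 2.32 to 40.3, and 3.79 with ZMYND8 cells taken at 3 counts per library. It was called higher after 6 h of doxorubicin in ZMYND8 cells (adjusted p = 0.0038), with 25 against 3 counts, a ratio of 8.64 with an interval of 2.64 to 44.7, and 4.30 at the same floor. Both calls were lost without the second untreated ZMYND8 library (adjusted p = 0.10 and 0.088), the latter also without the second ZMYND8 library at 6 h (adjusted p = 0.052). The adjusted p over all alternatives was 0.00057 to 0.10 for the first and 0.00024 to 0.088 for the second. After 48 h of doxorubicin, ZMYND8 cells had less SERPINB7 than GFP cells (−2.56, SE 0.53, adjusted p = 0.00014), and this passed the threshold in 9 of 9 alternatives. After 6 h the difference was 0.13 (SE 0.56, adjusted p = 0.87). In ZMYND8 cells, SERPINB7 at 48 h held 13 against 3 counts without doxorubicin, a ratio of 3.67 with a counting interval of 1.01 to 20.1, and 1.79 at the floor (adjusted p = 0.098). It was called without the first untreated ZMYND8 library (adjusted p = 0.014) and without the second at 48 h (adjusted p = 0.037), in a range of 0.014 to 0.65 over the alternatives.

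SERPINB5 (ENSG00000206075.14, hg38 chromosome 18, 63476958 to 63505085) encodes maspin, a serpin of mammary epithelium that does not inhibit proteases in the usual way. It did not pass the filter on low counts in either system. GFP cells held 0 and 1 counts untreated, none in either library at 6 h, and 5 and 2 counts at 48 h. Every ZMYND8 library held 3 to 7 counts. The untreated ZMYND8 cells held 8 counts in all against 1 in GFP cells, a ratio of 7.59 with a counting interval of 1.02 to 337, and 1.25 with GFP cells taken at 3 counts per library, with no test.

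SERPINH1 (ENSG00000149257.14, hg38 chromosome 11, 75562056 to 75572783) encodes HSP47, a collagen-specific chaperone of the endoplasmic reticulum that has no protease target. It was lower in ZMYND8 than in GFP cells at each time, by less than the fold required for a call. GFP cells held 390.3 and 385 CPM without doxorubicin, 395 and 368 CPM after 6 h, and 335 and 322 CPM after 48 h. ZMYND8 cells held 262 and 273 CPM without doxorubicin, 301 and 308 CPM after 6 h, and 241.1 and 241.4 CPM after 48 h. All 6 libraries of ZMYND8 cells were below the lowest GFP library.

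The difference of SERPINH1 between the lines was −0.54 log2 units without doxorubicin (SE 0.04, edgeR adjusted p = 9.4e-12), −0.32 at 6 h (SE 0.04, adjusted p = 1.4e-07) and −0.45 at 48 h (SE 0.04, adjusted p = 3.5e-10). At 48 h of doxorubicin it changed by −0.24 in GFP cells (SE 0.04, adjusted p = 1.1e-05) and by −0.15 in ZMYND8 cells (SE 0.04, adjusted p = 0.0029). Scaled by total counts, both values turned positive (0.0059, adjusted p = 0.90, and 0.057, adjusted p = 0.20), so no direction can be given for SERPINH1 at 48 h. Of 10 genes of collagen folding in the endoplasmic reticulum, all tested, 1 was called lower in untreated ZMYND8 cells and none higher (all genes 11% and 6.83%). That gene was FKBP10 (35 and 47 counts in GFP cells against 6 and 12, log2 fold change −2.26, SE 0.46, adjusted p = 0.00013). After 48 h of doxorubicin, 4 of the 10 were called lower in each line and none higher, where 8.29% of all genes were called lower in GFP and 6.5% in ZMYND8 cells. The medians of the list were −0.80 in GFP and −0.76 in ZMYND8 cells, beside 0.03 and 0.05 over all genes.

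**Figure D3:**
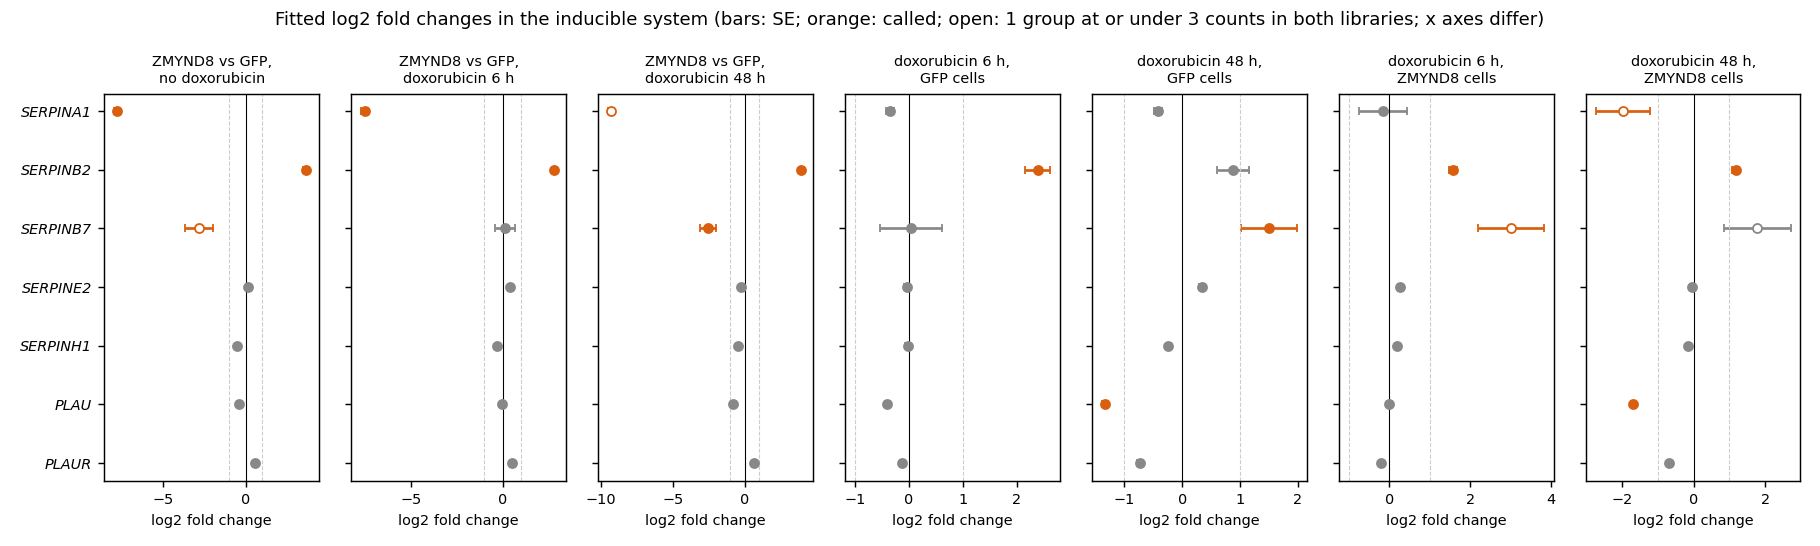
Fitted log2 fold changes (points) with their SE (bars) of the 7 genes tested in the inducible system, in 7 comparisons whose horizontal axes differ. Orange points were called, open points have 1 group at or under 3 counts in both libraries and depend on the prior count, and the dashed lines mark the fold a call required. SERPINA1 and SERPINB2 lie on opposite sides of 0 in all 3 comparisons of ZMYND8 with GFP cells.

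The genes lie partly in clusters. SERPINA1 and SERPINA3 belong to a cluster of 10 serpin genes over 343.6 kb of chromosome 14, and SERPINB2, SERPINB5 and SERPINB7 to a cluster of 10 over 542.8 kb of chromosome 18. On chromosome 14, 2 of the 10 genes reached a mean of 1 CPM in a group of the inducible system, SERPINA1 and SERPINA5. SERPINA5, which encodes the protein C inhibitor (also known as plasminogen activator inhibitor type 3), held 665 and 655 counts in untreated GFP cells and 2 and 2 in untreated ZMYND8 cells. This is a ratio of 348 with a counting interval of 135 to 1278, and 228 with ZMYND8 cells taken at 3 counts per library. In transient control cells, normalized separately, SERPINA5 also lay at the floor (mean 0.191 CPM), beside 34.1 CPM in untreated GFP cells. The ratio therefore does not give a loss from a level shared by all control cells. In GFP cells SERPINA5 fell 6.61-fold after 48 h of doxorubicin (115 and 124 counts, log2 fold change −2.72, SE 0.13, edgeR adjusted p = 2e-16). On chromosome 18, 3 genes reached 1 CPM in the inducible system (SERPINB2, SERPINB7 and SERPINB8), and of these SERPINB2 was higher and SERPINB7 lower in untreated ZMYND8 cells. SERPINB8, an inhibitor of furin, differed by −0.57 (SE 0.10, adjusted p = 1.6e-05).

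**Figure D4:**
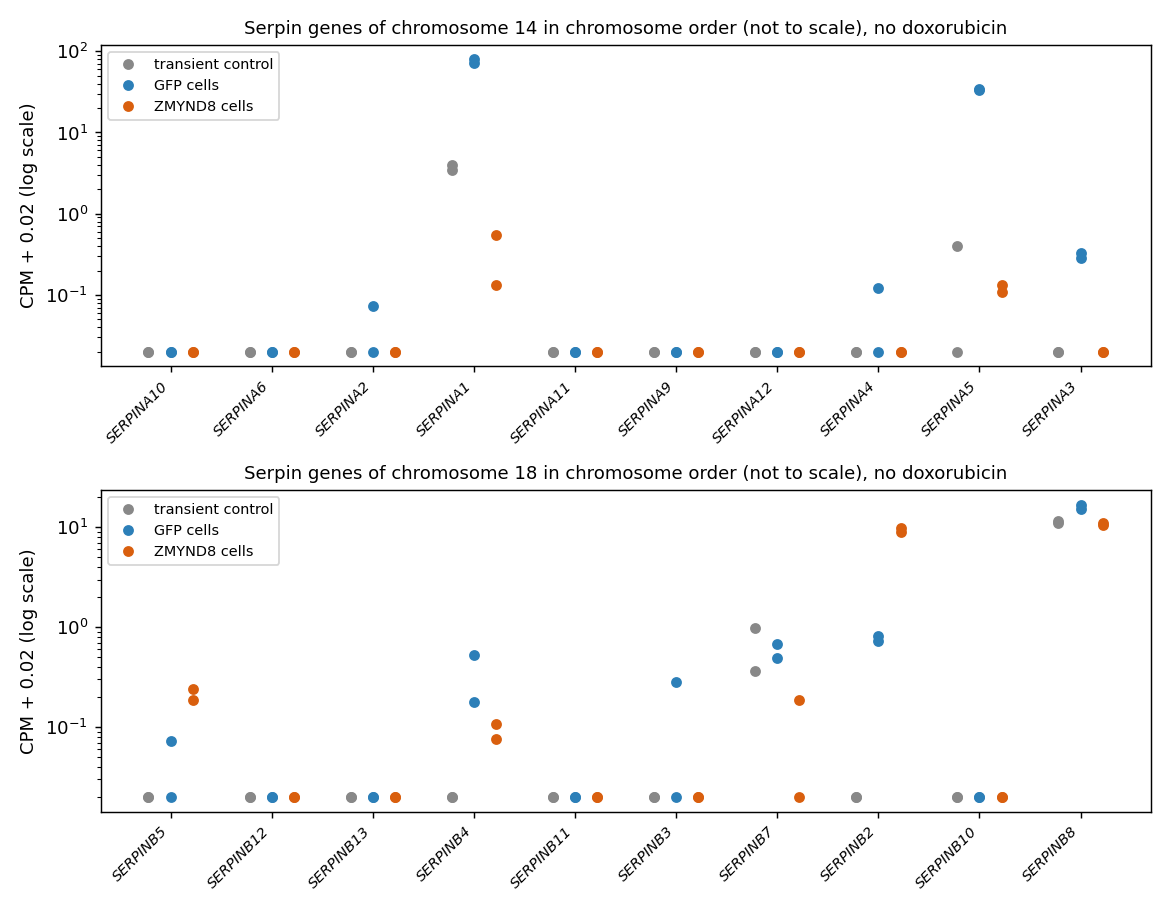
CPM plus 0.02 on a log axis of the serpin genes of the chromosome 14 and chromosome 18 clusters without doxorubicin, in chromosome order but not to scale, with 1 point per library. SERPINA1 (71.6 and 79.5 CPM) and SERPINA5 (33.7 and 34.5 CPM) are the highest genes of chromosome 14 in GFP cells, and both lie below 1 CPM in ZMYND8 cells.

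Among 29 other serpins, 12 were tested in the inducible system. Between untreated ZMYND8 and GFP cells, none was called higher and 5 lower, with a median log2 fold change of −1.38 against 0 over all genes. Of all genes tested, 6.83% were called higher and 11% lower in that comparison. The 5 were SERPINA5, SERPIND1 (heparin cofactor II, with 11 and 7 counts in GFP and 0 in both ZMYND8 libraries, at least 3.10-fold lower), SERPING1 (C1 inhibitor), SERPINF1 (pigment epithelium-derived factor, −2.87) and SERPINI1 (neuroserpin, −2.13). SERPING1 was 40.7-fold lower in ZMYND8 cells (166 and 152 counts against 3 and 5, log2 fold change −5.35, SE 0.30, edgeR adjusted p = 1.5e-14). Its mean was 8.22 CPM in untreated GFP and 0.193 CPM in untreated ZMYND8 cells. In transient control cells, normalized separately, it was 0.842 CPM. The 5 genes remained lower in ZMYND8 cells after 6 h of doxorubicin, when again 5 of the 12 were called lower and none higher (all genes 9.77% lower and 6.26% higher). After 48 h, 1 was called higher and 3 lower (all genes 7.2% and 10.3%).

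The composition markers moved with these comparisons too. Of 11 markers tested, CDH1 (0.721 to 4.16 CPM in untreated GFP and ZMYND8 cells) was called higher and EPCAM, PTPRC and PECAM1 lower in untreated ZMYND8 cells. Over all genes, 6.83% were called higher and 11% lower. The markers of leukocytes, endothelium, fibroblasts and liver (PTPRC, PECAM1, DCN and ALB) summed to 5.63 to 6.33 CPM per library in untreated GFP cells and to 1.23 to 1.66 in untreated ZMYND8 cells. After 48 h of doxorubicin the sums were 7.87 to 8.21 CPM in GFP and 4.07 to 4.68 CPM in ZMYND8 cells. CDH1, PTPRC, DCN and PGR were then called higher than without doxorubicin in both lines (all genes 14.1% in GFP and 13.6% in ZMYND8 cells). VIM was called lower in GFP cells (−1.06, SE 0.04, edgeR adjusted p = 3e-17), as were 8.29% of all genes. By the adjusted p alone, 5 of the 11 markers passed downward and 4 upward in each line. Of all genes, 64.2% passed that rule in GFP cells (50.4% of these higher) and 62.3% in ZMYND8 cells (50.6% of these higher). Among the markers that passed downward were VIM (−0.63, SE 0.04), CD44 (−0.33, SE 0.04) and EGFR (−0.52, SE 0.05) in ZMYND8 cells, and CD44 (−0.87, SE 0.04) and EGFR (−0.71, SE 0.05) in GFP cells. VIM, CD44 and EGFR thus fell after 48 h of doxorubicin, as PLAU and PLAUR did, whereas CDH1, PTPRC, DCN and PGR rose. A link between them was not tested. The liver marker ALB was near 0 in all groups, with means of 0 to 0.231 CPM over the 9 groups. The part of the markers in the results was not tested.

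By the pattern over the 12 inducible libraries, the genes most like a member were found by Pearson's r of log2 CPM among 12836 genes, as a description with no p, since the libraries fall into groups that share treatment. For SERPINA1 these were GSTM3 and PARP3 (r = 0.995 each), for SERPINB2 CNST (0.994) and FTSJ1 (0.992), for PLAU HMGA1 (0.995) and TKT (0.994), and for PLAUR SLC38A6 (0.996) and CCDC6 (0.995). For SERPINH1 they were ACSL5 (0.990) and APBB1IP (0.989), for SERPINE2 TUBGCP4 (0.953) and INPP5B (0.917), and for SERPINB7 FZD3 (0.905) and OXNAD1 (0.900).

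In the transient system, none of the 5 genes tested was called in any comparison by edgeR's quasi-likelihood test. This held for doxorubicin against control (background 4.08%), for the libraries labelled ZMYND8 against control (background 5.23%) and for the labelled libraries against doxorubicin alone, where 0% of all genes were called. By the adjusted p alone, again none of the 5 passed, with backgrounds of 5.13%, 6.82% and 0%. At an unadjusted p of at most 0.05 with the same fold, the counts were 0, 1 and 0, beside 1366, 1544 and 25 of all 15697 genes. DESeq2 called none of these genes, beside 687, 864 and 0 of 37454 genes in all. PLAU held 448 and 335 CPM in control cells, 325 and 257 CPM with doxorubicin, and 406 and 263 CPM in the labelled libraries, which overlapped with both other groups. Its change with doxorubicin was −0.43 (SE 0.26, adjusted p = 0.37). PLAUR held 90.1 and 66.8 CPM, 66.7 and 81.4 CPM, and 134 and 76.8 CPM in the same order, again with overlap. SERPINE2 ranged from 28.01 to 50.2 CPM and SERPINH1 from 218 to 332 CPM over the 6 libraries.

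SERPINA1 was the gene closest to a call in the transient system, with 18 and 23 counts in control cells (3.43 and 4.00 CPM), 19 and 157 with doxorubicin (3.30 and 5.99 CPM) and 47 and 48 in the labelled libraries (7.95 and 7.88 CPM). The labelled libraries exceeded the control libraries 2.12-fold (log2 fold change 1.08, SE 0.39, edgeR adjusted p = 0.12). With the replicate number as a block, the value was 1.10 and the adjusted p 0.044, so it was called, and the adjusted p over all alternatives was 0.044 to 0.38. That comparison also holds the effect of doxorubicin, and against doxorubicin alone the labelled libraries differed by 0.70 (SE 0.36, adjusted p = 1). SERPINB2 and SERPINA3 had 0 counts in all 6 transient libraries, which allows up to 0.547 CPM in control cells at 3 counts per library. SERPINB5 had 0 or 1 and SERPINB7 0 to 9 counts, and neither was tested there.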

How the data were processed

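Per the labels and the study's methods, polyadenylated RNA of 18 libraries was sequenced, with 2 replicates per condition. The paper calls them biological replicates for the inducible system. The authors deposited 2 tables of raw counts per gene, 1 for each system. Per its header, the transient table was made with featureCounts 1.6.4 over read pairs and exons of GENCODE 31 with reverse-strand counting on hg38. The version, annotation release and strand setting were taken from that header alone. The sources disagree on the aligner (TopHat in the methods, HISAT2 in the submitters' processing notes). Gene IDs were matched to symbols through the reference tables (60261 of 60603).

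The counts were tested as deposited, separately for each system, with edgeR 4.0.16 in R 4.3.3 (TMM factors, filterByExpr with a minimum count of 10, quasi-likelihood test with 1 mean per group) and Benjamini-Hochberg adjustment over all genes tested. A call needed an adjusted p of at most 0.05 and a change of 1 log2 unit or more. Differences of doxorubicin effects between the lines were tested as interactions. An exact permutation test of 2 against 2 libraries cannot go below p = 0.333, so none is given.

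The 9 genes, the gene lists (other serpins, plasminogen system, collagen folding, cell markers) and the tests were chosen with earlier results of these data known. The 9 genes, ZMYND8, PLAT, ANXA2, S100A10 and LRP1 were named in any case. Of the other list genes, the 12 with the largest changes among those called anywhere were named, and so were the 2 genes most like each member. Overlapping genes, cell markers and SERPINB8 were named after their values were seen. A gene of the lists is not reported here. Tested on simulated data with 200 changed genes, the fit recovered 46.3% of 2-fold and 90.5% of 4-fold changes in the transient comparison. In the inducible comparison it recovered 72.3% and 86.8%. A recovery needed the adjusted p and the right direction but not the fold of a call. These shares are therefore not the recovery of calls. The simulated spread followed the trend that edgeR fitted across genes. Alternatives were other normalizations, no filter, DESeq2 1.42.0, a replicate block, other thresholds and leaving out single libraries or both similar transient libraries. Same-numbered libraries deviated together in the transient system (3 of 3 pairs, r = 0.208 to 0.404) and did not in the inducible system (15 pairs, r = −0.0458 to 0.0216).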

Additional observations from a re-analysis of the deposited data

Results flagged for a closer look

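The doxorubicin effect differed between ZMYND8 and GFP cells, by the interaction term of edgeR's quasi-likelihood fit, for 4 of the 7 genes tested at 6 h and for 2 at 48 h. By adjusted p alone, 13.4% of all genes passed at 6 h and 28.6% at 48 h. Taken as the log2 effect in ZMYND8 cells minus that in GFP cells, the 6 h differences were 0.389 for PLAU, 0.310 for SERPINE2, 0.212 for SERPINH1 (adjusted p = 0.014, and 0.0056 to 0.11 over the alternatives) and −0.817 for SERPINB2. The value for SERPINB2 was the closest of the 4 to the threshold (adjusted p = 0.045), and most alternatives did not pass it, as given in the results. At 48 h the differences were −0.384 for SERPINE2 and −0.353 for PLAU. The differences for PLAU and SERPINE2 thus had opposite signs at 6 and 48 h, and they passed the adjusted p in 13 of 13 alternatives at both times. None of the 6 reached the fold that a call required, and both times share the untreated libraries.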

How the results depend on the processing

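Of the values of single genes under an alternative, 723 kept their direction and their call (adjusted p and fold together), 34 reversed, 8 lost and 8 gained the call. By the adjusted p alone, 30 lost and 9 gained the threshold. Without a fold cutoff, the called genes among the 7 were 4 (6 h) and 7 (48 h) in GFP cells, 5 and 5 in ZMYND8 cells, 6, 5 and 7 between the lines at 0, 6 and 48 h, and 4 and 2 for the interactions at 6 and 48 h. The shares of all genes under that rule are those given in the results for the adjusted p alone. DESeq2 and a log2 cutoff of 1.5 each gave 1 call for GFP cells at 48 h, beside 3331 of 39998 and 2435 of 18801 genes in all. The unadjusted p gave 1 for the labelled libraries against control (1544 of 15697 genes in all) and 1 for the 6 h interaction (585 of 18801). No filter also gave 1 for the 6 h interaction (244 of 39998). That setting gave 4 for the untreated lines and 3 for the lines at 6 h, in place of 3 and 2. It also counted the genes that the filter removed, and called 3576 and 3181 of 39998 genes in all. Without single libraries, the calls were 1 to 2 for GFP cells at 48 h and for ZMYND8 cells at 6 h, 2 to 4 for ZMYND8 cells at 48 h, 2 to 3 between the untreated lines and 0 to 1 for each interaction.

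With the replicate number as a block, 1 gene (SERPINA1) was called for the labelled libraries against control, and over all genes the block moved the calls from 640 to 1103 for doxorubicin and from 821 to 1294 for the labelled libraries. It changed no other call of the 9 genes.

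Scaling by total counts moved the median of all genes by 0.246 (GFP cells, 48 h), 0.205 (ZMYND8 cells, 48 h), 0.148 and 0.135 (transient doxorubicin and labelled libraries against control). The share of called genes that were higher moved from 62.9% to 79.8%, 67.7% to 81.1%, 61.6% to 80.0% and 58.1% to 74.3%, and from 52.1% to 38.5% for the 6 h interaction. This scaling reversed PLAUR with doxorubicin in the transient system (0.082), SERPINH1 at 48 h (0.0059 in GFP, 0.057 in ZMYND8 cells) and SERPINE2 in ZMYND8 cells at 48 h (0.16). Without the filter, SERPINE2 (0.013) and SERPINH1 (0.023) reversed in GFP cells and PLAU (0.00078) in ZMYND8 cells at 6 h. Without both similar libraries, SERPINA1 with doxorubicin (−0.17) and PLAU in the labelled libraries against control (0.038) reversed. The causes were not tested.

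Leaving out single libraries turned the sign of values near 0 or with few counts. In the transient system these ranged, with doxorubicin, from −0.17 to 0.68 (SERPINA1) and −0.28 to 0.14 (PLAUR). For the labelled libraries against control they ranged from −0.078 to 0.42 (SERPINE2), −0.18 to 0.34 (SERPINH1), −0.58 to 0.037 (PLAU) and −0.034 to 0.76 (PLAUR), and against doxorubicin from −0.15 to 0.46 (PLAU). In GFP cells at 6 h they ranged from −0.26 to 0.30 (SERPINB7) and −0.075 to 0.027 (SERPINH1), and between the lines at 6 h from −0.39 to 0.52 (SERPINB7) and −0.13 to 0.037 (PLAU). In ZMYND8 cells they ranged at 6 h from −0.77 to 1.405 (SERPINA1) and −0.081 to 0.059 (PLAU), and at 48 h from −0.11 to 0.0044 (SERPINE2). The interactions ranged from −0.43 to 1.75 (SERPINA1, 6 h), −2.17 to 0.021 (SERPINA1, 48 h) and −0.83 to 4.04 (SERPINB7, 48 h). With 2 libraries a group, a lone library was assumed to vary like the other groups.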
